A study of Homo sapiens with 24 samples.

Results

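The 8 genes examined here belong to the aryl hydrocarbon receptor (AHR) pathway and were followed under 4-hydroxytamoxifen (4-OHT) in MCF-10A cells and in MCF-10A cells carrying MYC-ER. They are AHR, ARNT, AHRR, CYP1A1, CYP1B1, TIPARP, NQO1 and ALDH1A3. Each was found by matching the Ensembl identifier of a row, with its version removed, to the gene symbol, which gave 8 of the 60668 rows of the gene table. All 8 were among the 22158 genes that passed the filter on low counts. MCF-10A is an immortalised, non-tumour human mammary epithelial cell line. MYC-ER is a fusion of the transcription factor MYC to the ligand-binding region of an oestrogen receptor, which 4-OHT switches on. The labels do not give the promoter of the transgene, whether its parts are human or mouse, or whether the line is 1 clone.

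The series holds 24 libraries in 8 groups of 3, namely parental cells (genotype wild-type in the labels) and MYC-ER cells (genotype MYC.ER) after 0, 8, 24 or 48 h of 1 µM 4-OHT. All cultures were grown in 3 dimensions on Matrigel, a basement membrane extract, and all were collected on day 5, so that treatment began at staggered times from day 3 onward. Poly(A) RNA was sequenced as strand-specific libraries. The labels name no vehicle for the 0 h groups and do not say whether the 3 replicates of a group came from separate experiments, so p-values measure the spread between these samples, which may be technical. The parental line received 4-OHT without the fusion, and the MYC-ER line received it with the fusion that it activates. With no vehicle named, an effect of 4-OHT and one of its vehicle cannot be told apart. The lines also differed before treatment, as given below, so a difference between them cannot be assigned to activated MYC alone.

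AHR is a ligand-activated transcription factor that waits in the cytoplasm with the chaperone HSP90 and the co-chaperone p23 (PTGES3). On binding dioxins, plant indoles or tryptophan breakdown products it enters the nucleus, pairs with ARNT and binds xenobiotic response elements, which share the core GCGTG. CYP1A1 and CYP1B1, cytochrome P450 enzymes that oxidise hydrocarbons and oestrogens, are its standard readouts, and AHRR and TIPARP are targets that restrain it in return. NQO1, a quinone reductase, answers to AHR and more strongly to the oxidative stress factor NRF2. 4-OHT has been described as an AHR ligand as well as an oestrogen receptor ligand, and the 8 genes therefore serve as a check of a further action of the drug.

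The response element core was looked for in the 250 bases before the RefSeq start sites (GRCh38.p14) of these genes, because it is the sequence through which the receptor would act on them. The search used GCGTG on both strands, so that CACGC marks a match on the other strand. RefSeq gave 10 start sites for 7 of the 8 genes, CYP1B1 having no entry, and 4 genes held the core. One window per gene is shown with the core in capitals, read 5′ to 3′ on the strand of the gene.
CYP1A1, chr15:74725571-74725595, minus strand: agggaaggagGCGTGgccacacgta
AHRR, chr5:321674-321698, plus strand: cgggcggctcGCGTGccggggtggg
TIPARP, chr3:156674372-156674396, plus strand: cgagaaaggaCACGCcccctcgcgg
ALDH1A3, chr15:100879778-100879802, plus strand: cgggcgggagGCGTGgggcgctgca
The core shown lay 57 to 53 bases before the start in CYP1A1, 30 to 26 in AHRR, 208 to 204 in TIPARP and 43 to 39 in ALDH1A3. Further matches, not shown, lay 247 to 243 and 42 to 38 bases before another AHRR start. TIPARP had another at 142 to 138 and ALDH1A3 another at 197 to 193. Of all 35116 promoter windows of this length, 32.2% held it, so a match is common. The MYC binding motif CACGTG was in 6.34% of windows and, among these genes, in that of AHR, at chr7:17298477-17298502, shown because MYC is the factor that the fusion activates.
AHR, plus strand: cctacgtcatCACGTGccgggatgag
A match describes the letters alone, and none was found in the windows of ARNT or NQO1. Annotated exons of the same gene covered 250 of the 250 bases in NQO1 and ALDH1A3, 248 in the TIPARP window shown and 169 in ARNT. They covered 82 in CYP1A1, 30 in AHR and 0 or 40 in AHRR. Much of the searched sequence can thus be transcribed, and sequence further from the starts was not searched.

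Levels are given in CPM, the count normalised to library size after scaling by the trimmed mean of M values (TMM). Libraries held 136860029 to 182438505 counts. The limit that a count of 0 allows, 3 counts, came to at most 0.0219 CPM of the library total before TMM scaling, and covers counting error alone. The share of counts from mitochondrial transcripts was 9.24% to 9.71% in untreated MYC-ER libraries and 5.61% to 6.78% in treated ones. In parental cells at 0 h it was 3.86%, 7.28% and 7.03% in replicates 1, 2 and 3, against 5.51% to 7.78% under 4-OHT. All 8 mammary epithelial markers examined, among them KRT5, KRT14, CDH1 and EGFR, had counts in every group, with summed levels of 17256 to 28382 CPM in parental and 10002 to 15414 CPM in MYC-ER libraries. Before treatment, MYC-ER against parental, 2 of these 8 markers were higher and 5 lower (edgeR adjusted p under 0.05). Of all genes, 31.6% were higher and 32.7% lower. Among the 5, the log2 difference was -3.96 for KRT14, -2.73 for KRT17 and -1.70 for EPCAM. In MYC-ER under 4-OHT, 5, 4 and 5 of the 8 were higher at 8, 24 and 48 h, and 3, 2 and 1 were lower. Of all genes, 32.2%, 30.4% and 23.4% were higher at these times, and 35.4%, 31.2% and 20.7% lower. EPCAM rose there by 3.62, 5.29 and 4.33 at 8, 24 and 48 h, from 1.93 CPM at 0 h. Of 9 markers of other cell types, the leukocyte genes PTPRC and CD3E and the fat gene ADIPOQ were at or near 0. The summed level of those 9 was 77.9 to 132.7 CPM in parental libraries and 240.2 to 247.04 CPM in MYC-ER at 0 h, against 77.3 to 110.2 CPM in treated MYC-ER, and most of it was COL1A1 (214.7 CPM in MYC-ER at 0 h). The endothelial marker PECAM1 differed between the lines at 0 h by -3.22 (MYC-ER against parental) and rose by 3.15 in MYC-ER at 8 h, from 0.113 to 1.01 CPM. The macrophage marker CD68 fell by 1.17 and fell by 1.56 in MYC-ER at 24 and 48 h, and the smooth muscle marker ACTA2 fell by 1.06 at 8 h and was 1.02 higher at 48 h. The part of the mitochondrial share and of these markers in the results below was not tested.

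In parental cells, the standard AHR readouts did not pass the test at any time, whereas ALDH1A3, TIPARP, AHR and ARNT rose. A gene is called where its adjusted p is under 0.05 in edgeR's quasi-likelihood test with Benjamini-Hochberg adjustment over all genes. At 8 h, 2 of the 8 genes were higher and the other 6 did not pass, where 31% of all genes tested were called, 15% higher and 16% lower. At 24 h, 4 were higher and 4 did not pass against 42.9% of all genes (21.2% higher, 21.7% lower). At 48 h, 4 were higher and 1 was lower against 40.5% (20.4% higher, 20.1% lower). At 8 and 24 h the counts called in either direction are near the background. At 24 and 48 h the share called higher was above that of all genes. With 8 genes, chosen with earlier results of these data known, nothing particular is read from these counts. When only the groups compared entered the fit, 1, 3 and 2 of the genes were called at the 3 times, and 1190, 4426 and 2541 genes in place of 6870, 9503 and 8978. In the main fit all groups share the estimate of the spread. Replicates were also compared in pairs by chi-square per degree of freedom, which grows with their difference. It was 164.2 to 269.8 in parental 0 h, the baseline of these comparisons, and 8.65 to 65.2 in the other groups.

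In MYC-ER cells, CYP1B1, CYP1A1, AHRR and ARNT fell at 8 h while ALDH1A3 and NQO1 rose, and each of these differences was smaller at 48 h. At 8 h, 3 genes were higher and 5 lower, where 67.6% of all genes were called, 32.2% higher and 35.4% lower. At 24 h, 2 were higher and 6 lower against 61.6% (30.4% and 31.2%), and at 48 h, 1 was higher and 4 were lower against 44.1% (23.4% and 20.7%). Over the 3 successive times the 8 genes had median log2 changes of -0.83, -0.93 and -0.37, beside medians over all genes of -0.10, -0.02 and 0.03. In parental cells the medians were 0.19, 0.27 and 0.23, beside medians of all genes between -0.03 and 0.00.

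**Figure D1:**
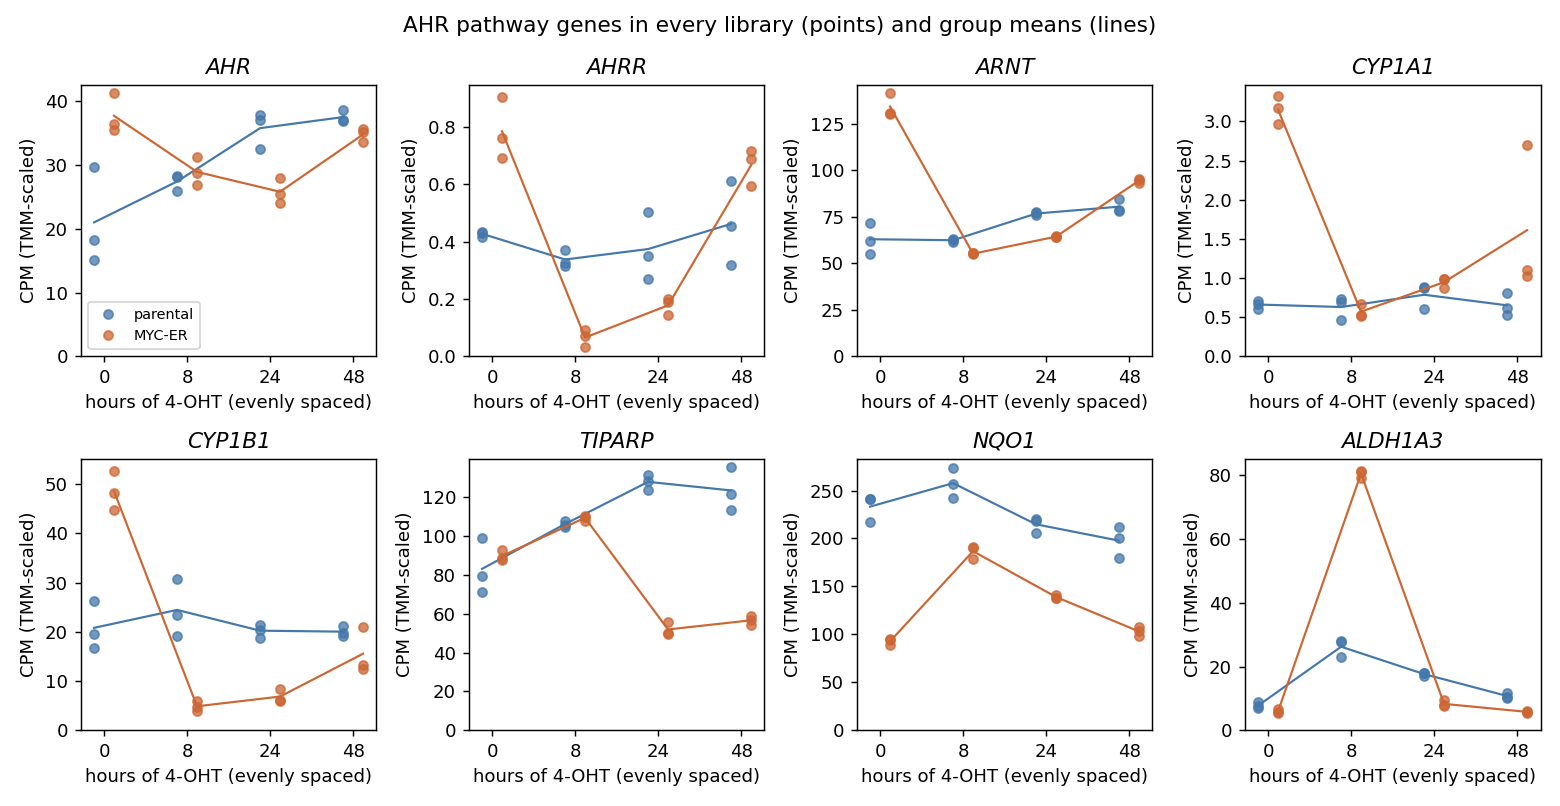
Levels of the 8 genes in CPM (vertical axes, each from 0) in every library (points) and as group means (lines) by hours of 4-OHT, with parental cells in blue and MYC-ER cells in orange. CYP1A1, CYP1B1, ARNT and AHRR start highest in MYC-ER at 0 h and drop at 8 h, while ALDH1A3 peaks at 8 h in both lines, at 26.2 and 80.6 CPM.

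Before treatment the lines already differed. MYC-ER at 0 h was higher than parental at 0 h for 5 of the genes and lower for 2, where 64.3% of all genes were called, 31.6% higher and 32.7% lower. CYP1A1 was 4.75-fold higher (95% interval 3.15 to 7.16), CYP1B1 2.33-fold, ARNT 2.13-fold, AHRR 1.83-fold and AHR 1.79-fold higher in MYC-ER. NQO1 was 2.52-fold lower and ALDH1A3 1.31-fold lower, and TIPARP did not pass the test (adjusted p = 0.254). For the 5 genes that were higher, a fall from 0 h in MYC-ER therefore starts from a higher level than the same fall would in parental cells.

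AHR, the receptor itself, rose in parental cells at 24 and 48 h and fell in MYC-ER cells at 8 and 24 h. In parental replicates 1, 2 and 3 its level was 18.2, 29.8 and 15.1 CPM at 0 h, 28.1, 28.3 and 25.9 at 8 h, 37.9, 32.5 and 37.0 at 24 h, and 37.0, 37.02 and 38.6 at 48 h. In MYC-ER it was 36.4, 41.3 and 35.5 CPM at 0 h, 28.7, 31.2 and 26.9 at 8 h, 28.0, 24.0 and 25.5 at 24 h, and 35.7, 35.2 and 33.6 at 48 h. The parental 0 h group was wide, its replicate 2 lying above all 3 libraries at 8 h, while the 24 and 48 h libraries were all above it. The parental log2 change was 0.38 ± 0.15 (SE) at 8 h, short of the threshold (edgeR adjusted p = 0.055). It was 0.77 ± 0.15 and 0.84 ± 0.15 at the later times (adjusted p = 0.00028 and 0.00015). Without parental 0 h replicate 2 the 8 h change was 0.72 (adjusted p = 1.3e-06), and it also passed with DESeq2's Wald test (0.39, adjusted p = 0.025). That library was also the highest of its group for ARNT, TIPARP, CYP1B1, CYP1A1 and ALDH1A3.

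In MYC-ER, AHR fell by 0.38 at 8 h and fell by 0.55 at 24 h on the log2 scale (edgeR adjusted p = 0.027 and 0.0029), and the 48 h difference of -0.12 did not pass (adjusted p = 0.57). The 8 h call was lost without MYC-ER 0 h replicate 2 (-0.31, adjusted p = 0.11), without 8 h replicate 1 (-0.38, adjusted p = 0.063), without 8 h replicate 3 (-0.33, adjusted p = 0.094) or with no filter on low counts (-0.37, adjusted p = 0.053). Over all 8 groups, MYC-ER at 0 h, both lines at 48 h and parental at 24 h formed an upper set with means of 34.8 to 37.7 CPM, in which neighbours overlapped. The other 4 groups, with means of 21.0 to 28.9 CPM, overlapped with their neighbours too. The change in MYC-ER minus that in parental cells came to -0.77, -1.31 and -0.95 for the 3 times (adjusted p = 0.0036, 1.5e-05 and 0.00081), where 55.2%, 54.5% and 45% of all genes were called for such a difference. With the trend on transcript GC removed, described further on, they were -0.58, -1.02 and -0.56 (adjusted p = 0.00079, 1.1e-06 and 0.0018). In bulk RNA, a lower level in every cell and fewer cells that express a gene cannot be told apart, here and for every gene below.

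ARNT, the partner with which AHR binds DNA, had closely grouped replicates in treated MYC-ER cells. In MYC-ER replicates 1, 2 and 3 its level was 131.0, 141.6 and 130.4 CPM before treatment, 54.9, 55.4 and 55.4 after 8 h, 64.2, 64.6 and 64.4 after 24 h, and 95.5, 95.01 and 93.0 after 48 h, with no overlap between groups. In parental cells the group means were 63.0 ± 8.27, 62.5 ± 0.71, 76.8 ± 0.84 and 80.5 ± 3.47 CPM (SD, n = 3) in the same order. MYC-ER cells before treatment thus held the highest level of the series. MYC-ER cells at 8 h had the lowest mean. Their replicate 1 lay below all parental libraries at 0 h (62.3, 71.6 and 55.1 CPM), and replicates 2 and 3 lay just above parental replicate 3. The range of parental cells at 0 h also overlapped with MYC-ER at 24 h and parental at 8 h. The fall in MYC-ER was 2.43-fold at 8 h, 2.09-fold at 24 h and 1.42-fold at 48 h (edgeR adjusted p = 5.7e-14, 1.7e-12 and 5.9e-07). In parental cells the log2 change of -0.01 at 8 h did not pass (95% interval -0.14 to 0.12), and the rises of 0.29 at 24 h and 0.35 at 48 h were past the threshold (adjusted p = 0.00073 and 0.00013) but not when only the groups compared were fitted (0.088 and 0.067). The changes differed between the lines by -1.27, -1.35 and -0.86 at 8, 24 and 48 h (adjusted p = 5.2e-11, 2.1e-11 and 7.3e-08).

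AHRR, the repressor that competes with AHR for ARNT, was the scarcest of the genes. In parental cells its level in replicates 1, 2 and 3 was 0.430, 0.417 and 0.434 CPM at 0 h, 0.325, 0.317 and 0.371 at 8 h, 0.271, 0.501 and 0.349 at 24 h, and 0.455, 0.611 and 0.318 at 48 h. In MYC-ER it was 0.690, 0.902 and 0.759 CPM at 0 h, 0.0723, 0.0922 and 0.0334 at 8 h, 0.146, 0.189 and 0.199 at 24 h, and 0.686, 0.595 and 0.715 at 48 h. The 8 h libraries of MYC-ER rest on 10, 13 and 5 counts, and they lie apart from every other library of the series. By 48 h the level overlapped with that at 0 h.

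The fall of AHRR in MYC-ER was 11.8-fold at 8 h (95% interval of the log2 change -4.21 to -2.91, edgeR adjusted p = 1.3e-09) and 4.40-fold at 24 h (adjusted p = 7.6e-07), and at 48 h the log2 difference of -0.24 did not pass (adjusted p = 0.50). In parental cells no time passed, with log2 differences of -0.34, -0.19 and 0.11 and intervals from -0.90 to 0.67 over the 3 times. The changes differed between the lines by -3.22 at 8 h and -1.94 at 24 h (adjusted p = 6.6e-07 and 0.00018), and at 48 h the difference of -0.35 did not pass (adjusted p = 0.49). AHRR shares 244 exon bases with PDCD6 on the same strand, which had 8921 to 15153 counts per library against 5 to 159 for AHRR, so its counts are uncertain where reads could be split between them.

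CYP1A1, the enzyme used most often to show that AHR is active, stayed low in parental cells throughout. Its level in parental replicates 1, 2 and 3 was 0.669, 0.714 and 0.607 CPM at 0 h, 0.690, 0.735 and 0.469 at 8 h, 0.603, 0.875 and 0.885 at 24 h, and 0.614, 0.528 and 0.816 at 48 h. In MYC-ER it was 2.96, 3.32 and 3.16 CPM at 0 h, 0.535, 0.667 and 0.514 at 8 h, 0.990, 0.985 and 0.872 at 24 h, and 1.03, 1.11 and 2.70 at 48 h. The untreated MYC-ER libraries stand above all others, the parental groups and MYC-ER at 8 and 24 h overlap with their neighbours, and MYC-ER 48 h replicate 3 lies far above the other 2 of its group.

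In parental cells the log2 change of CYP1A1 was -0.07 at 8 h (95% interval -0.66 to 0.52), 0.25 at 24 h (-0.34 to 0.83) and -0.02 at 48 h (-0.61 to 0.56). On a linear scale these intervals end at 1.43-fold, 1.78-fold and 1.48-fold higher. The counts of CYP1A1 per library ran from 74 to 586. In MYC-ER the gene fell 5.50-fold at 8 h, 3.32-fold at 24 h and 1.95-fold at 48 h (edgeR adjusted p = 1.3e-07, 1.3e-05 and 0.0062). The 48 h log2 change of -0.97 was -1.56 without replicate 3 of MYC-ER 48 h and -0.72 without replicate 1, and passed both times. The difference between the lines in these changes was -2.39 at 8 h and -1.98 at 24 h (adjusted p = 2.6e-05 and 0.00020). At 48 h it was -0.94 and did not pass (adjusted p = 0.055), but it was -1.54 when replicate 3 of MYC-ER 48 h was omitted (adjusted p = 0.00023) and -1.07 when replicate 2 of parental 48 h was (adjusted p = 0.043). It also passed with the GC trend removed (-1.04, adjusted p = 0.038; -1.06 and 0.039 with the replicate block as well), with DESeq2's Wald test (-0.94, adjusted p = 0.047) and with at least 10 counts required in every library (-0.91, adjusted p = 0.047).

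CYP1B1, the related enzyme that hydroxylates oestradiol and is the more abundant one in many mammary cells, also fell in MYC-ER cells and did not pass the test in parental cells. Per kilobase of transcript it stood at 3.96 ± 0.94 CPM (SD, n = 3) in parental cells at 0 h, against 0.247 ± 0.020 for CYP1A1. Its level in parental replicates 1, 2 and 3 was 19.6, 26.2 and 16.6 CPM at 0 h, 23.5, 30.7 and 19.2 at 8 h, 21.4, 20.4 and 18.8 at 24 h, and 19.8, 21.1 and 19.1 at 48 h. In MYC-ER it was 44.8, 52.7 and 48.1 CPM at 0 h, 5.89, 4.72 and 3.99 at 8 h, 8.34, 5.98 and 6.21 at 24 h, and 13.3, 12.4 and 21.0 at 48 h. All parental groups overlapped, untreated MYC-ER stood above them, and MYC-ER at 8 and 24 h stood below them without overlap.

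The fall of CYP1B1 in MYC-ER was 9.99-fold at 8 h, 7.09-fold at 24 h and 3.12-fold at 48 h (edgeR adjusted p = 8.3e-12, 1.0e-10 and 6.4e-07). In parental cells the log2 changes of 0.23, -0.04 and -0.06 did not pass, with 95% intervals of -0.18 to 0.64, -0.45 to 0.37 and -0.46 to 0.35. The changes differed between the lines by -3.55, -2.79 and -1.59 (adjusted p = 7.1e-10, 2.8e-08 and 8.4e-05). CYP1B1 shares 678 exon bases with CYP1B1-AS1 and 96 with RMDN2 on the other strand, whose counts came to 0.834% and 18.9% of its own, and the strand use of the counting is not given in the sources used here.

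TIPARP, a mono-ADP-ribosyltransferase induced by AHR that inactivates it in turn, rose in parental cells and, after 8 h, fell in MYC-ER. Its level in parental replicates 1, 2 and 3 was 79.4, 98.9 and 71.1 CPM at 0 h, 108.0, 104.8 and 105.9 at 8 h, 123.9, 131.7 and 128.2 at 24 h, and 113.4, 121.6 and 135.6 at 48 h. In MYC-ER it was 87.6, 92.8 and 88.8 CPM at 0 h, 110.6, 108.0 and 109.7 at 8 h, 55.7, 50.3 and 49.8 at 24 h, and 56.8, 54.0 and 59.1 at 48 h. Both lines shared about the same level at 0 and 8 h and then parted, with the 24 and 48 h groups of the 2 lines at opposite ends of the series.

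The log2 change of TIPARP at 8 h was 0.35 ± 0.08 (SE) in parental and 0.29 ± 0.08 in MYC-ER cells (edgeR adjusted p = 0.0029 and 0.0045). Their difference of -0.07 did not pass (95% interval -0.31 to 0.18, adjusted p = 0.66), and became -0.21 once replicate 2 of parental 0 h was left out (adjusted p = 0.042). The parental call at 8 h was lost when only the groups compared were fitted (adjusted p = 0.11), and the MYC-ER call at 8 h when scaled by library size alone (0.20, adjusted p = 0.056) or by the upper quartile (0.15, adjusted p = 0.082). At 24 and 48 h the change was 0.62 and 0.57 in parental cells (adjusted p = 8.5e-06 and 2.9e-05) and -0.79 and -0.66 in MYC-ER (adjusted p = 3.3e-08 and 1.0e-06). These changes differed between the lines by -1.41 and -1.24 (adjusted p = 1.4e-09 and 3.2e-08).

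NQO1, which reduces quinones and protects against oxidative damage, was the most abundant of the 8 genes. Per kilobase of transcript, its level at 0 h was 80.1 ± 4.86 CPM (SD, n = 3) in parental and 31.8 ± 1.04 in MYC-ER cells, while ARNT was at 12.9 ± 1.69 and 27.5 ± 1.29, and TIPARP at 19.9 ± 3.41 and 21.5 ± 0.65. Its mean level in parental cells was 233.2 ± 14.2, 257.7 ± 15.8, 214.7 ± 8.00 and 197.7 ± 16.3 CPM at 0, 8, 24 and 48 h, and in MYC-ER cells 92.6 ± 3.02, 186.7 ± 7.07, 139.0 ± 1.39 and 103.01 ± 4.53. Parental neighbours in this order overlapped below 8 h, and parental at 48 h overlapped MYC-ER at 8 h. The other MYC-ER groups were apart from one another and below all parental libraries.

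The rise of NQO1 in MYC-ER was 2.02-fold at 8 h and 1.50-fold at 24 h (edgeR adjusted p = 2.5e-12 and 2.5e-08). At 48 h it was 1.11-fold (adjusted p = 0.047). It missed the threshold when any 1 MYC-ER library other than 48 h replicate 3 was left out (log2 0.12 to 0.17, adjusted p up to 0.18). It did so too without any 1 parental 24 h library, or without parental 0 h replicate 1, 8 h replicate 3 or 48 h replicate 2 (adjusted p = 0.051 to 0.060), and with no filter on low counts (adjusted p = 0.094). In parental cells NQO1 did not pass at 8 h (log2 0.14, adjusted p = 0.078) or 24 h (-0.12, adjusted p = 0.125), and fell by 0.24 at 48 h (adjusted p = 0.0032), a call lost when only the groups compared were fitted (adjusted p = 0.15). The 8 h difference in parental cells passed if replicate 3 of 0 h (0.18, adjusted p = 0.040) or replicate 2 of 8 h (0.19, adjusted p = 0.047) was omitted, and also when scaled by library size alone (0.18, adjusted p = 0.0092), with DESeq2's Wald test (0.15, adjusted p = 0.041) or with at least 10 counts required in every library (0.15, adjusted p = 0.047). The 24 h difference passed without replicate 2 of 0 h (-0.17, adjusted p = 0.026), when scaled by the upper quartile (-0.20, adjusted p = 0.0095) or with the GC trend removed (-0.21, adjusted p = 0.010; 0.0098 with the replicate block as well). The changes differed between the lines by 0.87, 0.70 and 0.39 at 8, 24 and 48 h (adjusted p = 1.7e-08, 4.2e-07 and 0.00081).

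ALDH1A3, which makes retinoic acid from retinal and marks progenitor-like mammary cells, rose in both lines at 8 h. Its level in parental replicates 1, 2 and 3 was 7.46, 8.91 and 6.83 CPM at 0 h, 27.7, 22.8 and 28.1 at 8 h, 18.1, 17.0 and 17.8 at 24 h, and 10.2, 10.3 and 11.7 at 48 h. In MYC-ER it was 6.68, 5.57 and 5.45 CPM at 0 h, 81.5, 79.3 and 81.1 at 8 h, 9.37, 7.81 and 7.67 at 24 h, and 5.43, 5.72 and 6.14 at 48 h. Every 8 h library was above every library of the other times in the same line, and the MYC-ER 8 h libraries were the highest of the series.

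The rise of ALDH1A3 in parental cells was 3.39-fold at 8 h (95% interval 2.92 to 3.94), 2.28-fold at 24 h and 1.39-fold at 48 h (edgeR adjusted p = 8.6e-10, 7.1e-08 and 0.00086), the last missing the threshold when only the groups compared were fitted (0.051). It was the only 1 of the 8 genes with more than a 2-fold change in parental cells, where 1.08% of all genes were called and over 2-fold higher at 8 h and 1.88% at 24 h. In MYC-ER the rise was 13.7-fold at 8 h (11.6 to 16.1) and 1.40-fold at 24 h (adjusted p = 1.6e-17 and 0.00032), and the difference of -0.03 at 48 h did not pass (adjusted p = 0.83). The changes differed between the lines by 2.01 at 8 h, -0.70 at 24 h and -0.51 at 48 h (adjusted p = 1.2e-10, 0.00032 and 0.0072). The antisense gene AC015712.2 shares 1585 exon bases with ALDH1A3, and its counts came to 12.2% of those of ALDH1A3.

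**Figure D2:**
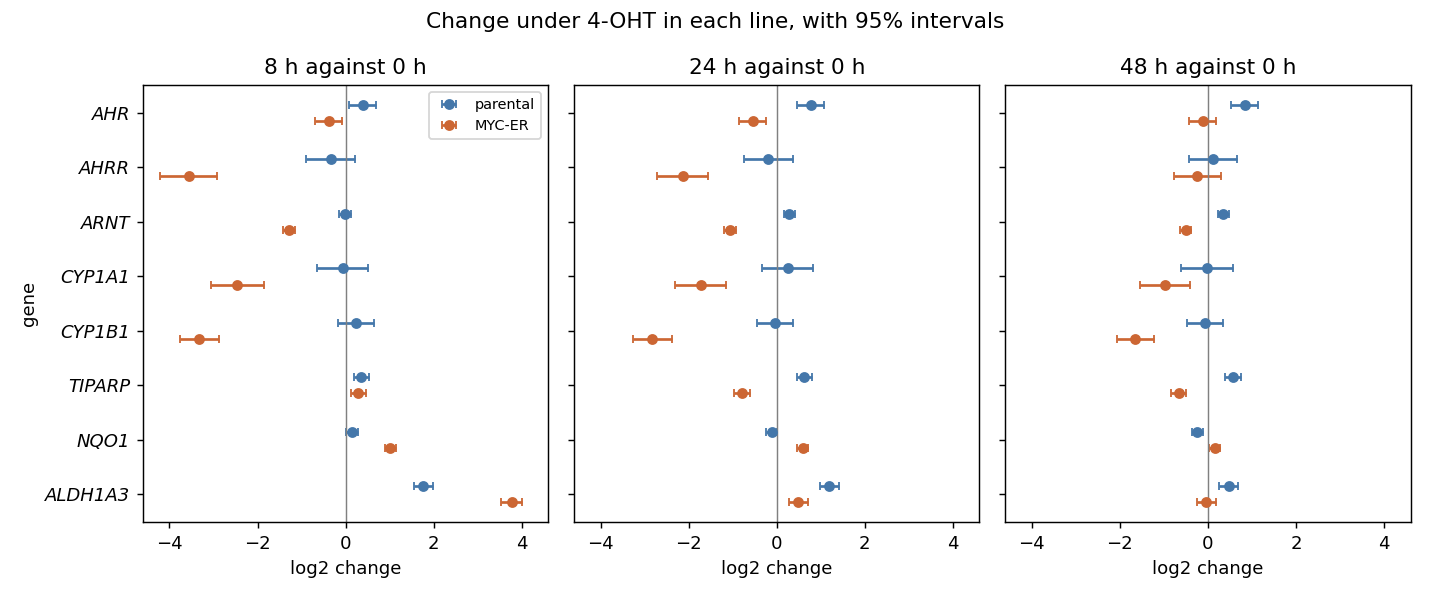
Log2 change from 0 h (horizontal axis) of each gene at 8, 24 and 48 h, with 95% intervals as bars, in parental cells (blue) and MYC-ER cells (orange). The parental intervals of AHRR, CYP1A1 and CYP1B1 hold 0 at all 3 times, whereas in MYC-ER at 8 h these genes lie between -2.46 and -3.56.

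Set side by side at equal times, the 2 lines differed in other ways than at 0 h. At 8 h, 1 of the 8 genes was higher in MYC-ER and 4 were lower, where 48.6% of all genes were called, 23.1% higher and 25.5% lower. ALDH1A3 was 3.07-fold higher, and CYP1B1 5.03-fold, AHRR 5.10-fold, NQO1 1.38-fold and ARNT 1.13-fold lower. CYP1A1, AHR and TIPARP did not pass (log2 -0.14, 0.08 and 0.04, edgeR adjusted p = 0.72, 0.71 and 0.71). The ARNT call was lost without MYC-ER 8 h replicate 1 or any 1 parental 8 h library (adjusted p = 0.053 to 0.067). At 24 h, 7 were lower against 49.4% (23.5% higher, 25.8% lower), CYP1A1 being the gene that did not pass (log2 0.27, edgeR adjusted p = 0.45). The AHR call at 24 h (-0.47) was lost without MYC-ER 24 h replicate 2 (-0.42, adjusted p = 0.050). At 48 h, 2 were higher and 3 lower against 56.7% (27.3% higher, 29.4% lower). CYP1A1 was then 2.47-fold higher in MYC-ER (log2 1.31), and without MYC-ER 48 h replicate 3 the log2 difference was 0.71 and still passed. ARNT was 1.17-fold higher in MYC-ER, and TIPARP 2.18-fold, NQO1 1.92-fold and ALDH1A3 1.86-fold lower. CYP1B1 at 48 h did not pass (log2 -0.36, adjusted p = 0.12), and without MYC-ER 48 h replicate 3 it was -0.64 (adjusted p = 0.0087).

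The line by time difference was called for 2 genes upward and 5 downward at 8 h, 1 and 7 at 24 h, and 1 and 5 at 48 h, beside the shares of all genes given with AHR. Those shares split into 27.3% upward and 27.8% downward at 8 h, 27.7% and 26.8% at 24 h, and 23.6% and 21.4% at 48 h. NQO1 was on the upward side at each time, and ALDH1A3 passed from the upward side at 8 h to the downward side later. CYP1B1, ARNT and AHR were on the downward side at all 3 times.

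Changes in parental cells moved with the GC content of transcripts. Over 9784 genes, the parental log2 change and transcript GC were related across genes with Spearman's rho of -0.62, -0.66 and -0.65 for the 3 successive times, and in MYC-ER rho was between -0.06 and 0.03. For the line by time difference rho was 0.23, 0.25 and 0.46. Genes are not independent replicates, so these values are descriptions. AHR, with 38.2% GC, is at the 8.44th percentile of the tested genes, TIPARP, with 42.8%, at the 26.6th, and AHRR, with 57.4%, at the 78.9th. With each library's trend on GC removed, the parental change of AHR was 0.16, 0.43 and 0.50 at the 3 times in place of 0.38, 0.77 and 0.84, and the later 2 still passed (edgeR adjusted p = 0.0011 and 0.00034). TIPARP was at 0.23, 0.43 and 0.40 and passed each time, and ALDH1A3 was at 1.82, 1.26 and 0.55. NQO1 was at 0.09, -0.21 and -0.31, and passed at 24 and 48 h (adjusted p = 0.010 and 0.00048). CYP1A1, CYP1B1 and AHRR did not pass in parental cells in any alternative fit.

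**Figure D3:**
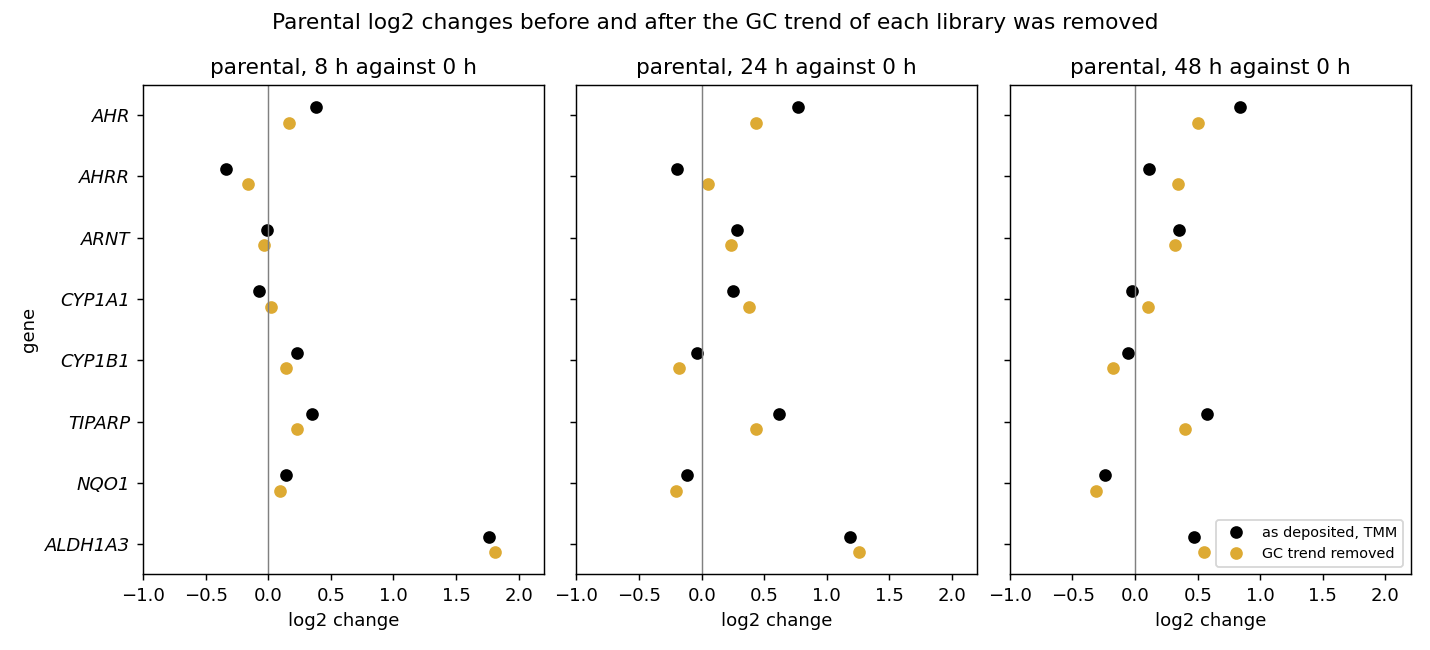
Parental log2 change from 0 h (horizontal axis) of each gene at 8, 24 and 48 h, as fitted (black) and after the trend of each library on transcript GC content was removed (yellow). AHR moves from 0.84 to 0.50 at 48 h, whereas ALDH1A3 stays near 1.8 at 8 h, from 1.76 to 1.82.

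The proteins that hold AHR ready in the cytoplasm were followed with related transcription factors in a list of 9 genes. For this and the lists that follow, counts at 8 h stand beside 67.6% of all genes called in MYC-ER (32.2% higher, 35.4% lower, median log2 change -0.10). In parental cells they stand beside 31% (15% higher, 16% lower, median -0.00). Nothing particular to a list is read from them. In MYC-ER at 8 h, 6 of the 9 were higher and 2 lower, with a median log2 change of 1.15. HSP90AA1, a chaperone subunit that binds the unliganded receptor, rose by 2.75, from 578.2 to 3885 CPM. ARNT2, the close relative of ARNT, rose by 2.52, from 0.572 to 3.28 CPM, and PTGES3 rose by 1.77. ARNT and ARNT2 thus went opposite ways in MYC-ER at 8 h. In parental cells at 8 h, 3 of the 9 were higher (ARNT2 by 0.61 and HSP90AA1 by 0.38 among them) and 1 lower, with a median of 0.08.

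A further 20 AHR targets were listed, of which 16 were tested. In parental cells at 8 h, 7 were higher and 3 lower against 15% and 16% of all genes, with a median of 0.31. SERPINB2, an inhibitor of plasminogen activators, rose by 2.56, from 1.13 ± 0.25 to 6.66 ± 1.75 CPM (SD, n = 3), and PTGS2, the inducible cyclooxygenase, rose by 0.88, whereas the transcription factor FOXQ1 fell by 1.00. SERPINB2 stayed higher at 24 h (3.33) and 48 h (1.72). In MYC-ER at 8 h, 7 were higher and 7 lower against 32.2% and 35.4% of all genes, with a median of 0.09. The drug exporter ABCG2 rose by 4.93, from 0.0519 to 1.60 CPM, and LRAT, which stores retinol as an ester, rose by 4.84, from 3.08 to 88.6 CPM, while FOXQ1 fell by 3.87. At 24 and 48 h, 7 and 6 of the 16 were higher in parental cells, and 2 were lower each time. In MYC-ER 6 and 8 were higher and 5 and 3 lower. Of all genes at these times, 21.2% and 20.4% were higher and 21.7% and 20.1% lower in parental cells. In MYC-ER 30.4% and 23.4% were higher and 31.2% and 20.7% lower. CYP1A2, the third enzyme of the family, had 0 counts in all 24 libraries.

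**Figure D4:**
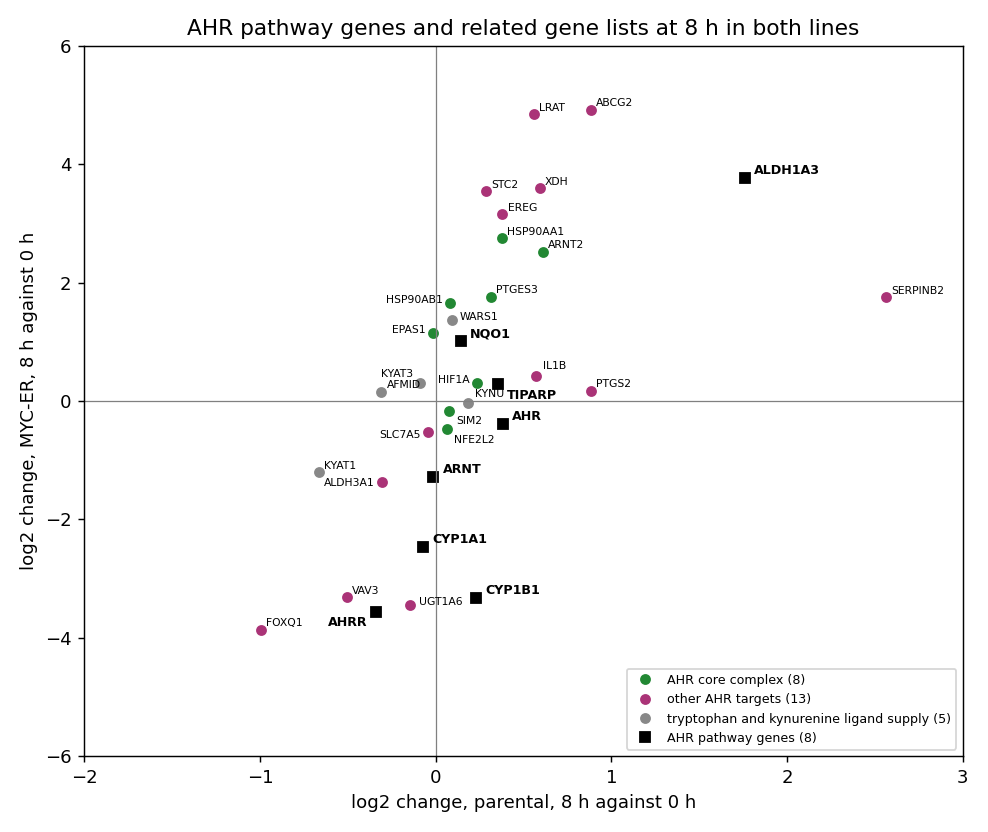
Log2 change at 8 h against 0 h in parental cells (horizontal axis) and in MYC-ER cells (vertical axis) for the 8 genes (black squares) and the genes of 3 related lists with at least 1 CPM in their highest group (circles), less 1 gene not reported here. ALDH1A3, at 1.76 and 3.77, is the only square far from 0 on both axes, and CYP1A1, CYP1B1 and AHRR lie low on the vertical axis and near 0 on the horizontal one.

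Genes that make or divert AHR ligands from tryptophan formed a list of 12, of which 9 were tested. Of these, 1 was higher and 2 lower in parental cells at 8 h, where 31% of all genes were called, and 3 were higher and 2 lower in MYC-ER, where 67.6% were. WARS1, the tryptophanyl-tRNA synthetase, rose by 1.38 in MYC-ER, and KYAT1, a kynurenine aminotransferase, fell by 1.21 there and by 0.66 in parental cells. KYNU, kynureninase, rose by 0.18 in parental cells at 8 h.

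Beside NQO1 stood 10 NRF2 target genes. In MYC-ER at 8 h, 5 were higher and 4 lower against 32.2% and 35.4% of all genes, with a median of 0.20. OSGIN1 rose by 2.61, and the transporter ABCC2 and the haem oxygenase HMOX1 fell by 3.86 and 2.18, so the list did not move one way with NQO1. In parental cells at 8 h, 4 were higher and 5 lower against 15% and 16%, with GCLM, a subunit of the first enzyme of glutathione synthesis, up by 0.60 and the cystine carrier SLC7A11 up by 0.60.

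Beside ALDH1A3 stood 15 retinoid genes, 11 of them tested. In MYC-ER at 8 h, 6 were higher and 3 lower against 32.2% and 35.4% of all genes, with a median of 0.33. DHRS9, a retinol dehydrogenase, rose by 4.10, the retinol receptor STRA6 by 3.83 and the retinoic acid carrier CRABP2 by 1.63. In parental cells at 8 h, 2 were higher and 4 lower against 15% and 16%, STRA6 rising by 1.17 and the retinoic acid hydroxylase CYP26B1 by 0.52, while ALDH1A2 fell by 0.51.

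RNA of the cells' own receptor that 4-OHT is best known to bind was scarce in parental cells. ESR1, the gene of oestrogen receptor alpha, had means of 0.144 to 0.240 CPM over the parental groups and did not pass at any time there. In MYC-ER it had 78 to 96 counts per library at 0 h and 0 to 5 counts at 8 h. Whether reads of the fusion were counted as ESR1 is not known, so these counts do not measure the receptor region of MYC-ER. Of 10 oestrogen receptor and target genes, 8 were tested. In parental cells at 8 h, 3 were higher and 2 lower, where 31% of all genes were called, with GPER1, a membrane oestrogen receptor, down by 1.23 and MYB up by 0.41. In MYC-ER at 8 h, 3 were higher and 2 lower, where 67.6% were called, with MYB up by 4.97 and GREB1 down by 4.29.

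Enzymes that act on 4-OHT were looked at because they could alter its level in the culture. Of 13, 9 were tested. At 8 h, 5 were lower in parental cells and 7 in MYC-ER cells, where 16% and 35.4% of all genes were lower, and the others did not pass. The oestrogen sulphotransferase SULT1E1 fell by 0.55 in parental and by 3.39 in MYC-ER cells, from 25.9 to 2.47 CPM in the latter, and in MYC-ER at 24 h it fell by 2.61. CYP3A5, a drug oxidase, was 5.57 higher on the log2 scale in MYC-ER than in parental cells at 0 h. In MYC-ER it fell by 4.42 at 8 h, from 13.8 to 0.644 CPM, and fell by 2.34 at 24 h, and was 1.66 higher at 48 h (43.3 CPM). CYP3A4, a main hepatic drug oxidase, was higher in MYC-ER at 24 h (1.37 CPM) and 48 h (3.66 CPM) than at 0 h (0.0849 CPM). Of the 9 tested genes, 3 were higher and 3 lower in MYC-ER at 24 h, and 5 higher and 2 lower at 48 h. In parental cells 4 were lower at 24 h and 2 at 48 h, and the others did not pass. These counts stand beside the shares of all genes given with the further AHR targets.

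The genes whose levels most resembled those of the 8 were ranked by Pearson's r of log2 CPM over the 24 libraries, among 10578 genes, as a description. CYP1B1 was most like PERP (r = 0.959), a desmosome-associated protein, and ARNT most like DSG3 (0.984), a desmosomal cadherin. CYP1A1 was most like PPM1L (0.928), ZRANB1 (0.925) and SULT1E1 (0.919), and AHRR most like PLCH2 (0.940). For each of these 4 genes the most similar gene was highest in MYC-ER at 0 h, as the gene itself was. NQO1 was most like the potassium channel KCNK1 (0.985), ALDH1A3 most like PIP4K2A (0.967), AHR most like TNKS2 (0.963) and TIPARP most like CRK (0.954). These libraries share their groups and lines, and 24 libraries hold 8 group levels.

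Among the 8 genes themselves, the values of r depended on the line. As a description, over the 12 parental libraries AHR went with TIPARP (r = 0.946) and ARNT (0.897), and only weakly with CYP1B1 (0.227) and CYP1A1 (0.236). Over the 12 MYC-ER libraries AHR went with CYP1B1 (0.826) and ARNT (0.848) and little with TIPARP (0.241). AHRR and ARNT went together in MYC-ER (0.919) and not in parental cells (0.0571).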

How the data were processed

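RNA-seq of 24 libraries was summarised by the authors as 1 table of estimated counts per gene, deposited as whole numbers and used as deposited. The submitters' processing notes name Trimmomatic 0.39, STAR, StringTie 2.1.3b and the build GRCh38. The annotation release, the counting step and its use of strand are not given in the sources used here. The 8 genes and all gene lists were chosen with earlier results of these data known.

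Genes were filtered with edgeR's filterByExpr, scaled by TMM and fitted with edgeR 4.0.16 (R 4.3.3) as 1 mean per group over all 24 libraries, with the quasi-likelihood F test, Benjamini-Hochberg adjustment per comparison and a threshold of 0.05. Standard errors and 95% intervals come from the F statistic. The script recovered known changes in simulated data. Those had the same spread in every gene and group and no GC trend, so they did not test the fit at the spread of parental 0 h. All 8 genes are named with values. From each list, up to 3 called genes per comparison with the largest changes are named if the higher group averaged 1 CPM or more, ESR1 always, and for each of the 8 genes up to 3 with the highest r. One listed gene is not reported here. CYP1A2 and the later times given for SERPINB2 and CYP3A4 were chosen after their values were seen. Positions and overlapping genes come from GENCODE 29 (GRCh38), and promoter sequences from RefSeq (GRCh38.p14). Replicate numbers did not pair the libraries (correlation of deviations -0.03 to 0.05). Alternatives covered scaling, filters, DESeq2 1.42.0, a GC correction, the replicate block, fits of only the groups compared, and leaving out each library.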

Additional observations from a re-analysis of the deposited data

Results flagged for a closer look

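The change under 4-OHT differed between MYC-ER and parental cells, by edgeR's test of the line by time term, in 21 of 24 gene and time combinations. Values are the log2 change in MYC-ER minus that in parental cells. At 8 h they were -0.77 for AHR, -3.22 for AHRR, -1.27 for ARNT, -2.39 for CYP1A1, -3.55 for CYP1B1, 0.87 for NQO1 and 2.01 for ALDH1A3. At 24 h they were -1.31 for AHR, -1.94 for AHRR, -1.35 for ARNT, -1.98 for CYP1A1, -2.79 for CYP1B1, -1.41 for TIPARP, 0.70 for NQO1 and -0.70 for ALDH1A3. At 48 h they were -0.95 for AHR, -0.86 for ARNT, -1.59 for CYP1B1, -1.24 for TIPARP, 0.39 for NQO1 and -0.51 for ALDH1A3. ALDH1A3 was positive at 8 h and negative later, and the shares of all genes called for this term were 55.2%, 54.5% and 45%. CYP1A1 and AHR were higher in MYC-ER before treatment. At 8 h they did not pass between the lines (edgeR adjusted p = 0.72 and 0.71).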

How the results depend on the processing

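No called value of the 8 genes changed sign under the alternatives run. Of 3523 recomputed member results, 3459 kept their side of the threshold, 37 lost it and 27 gained it. Fitting only the groups compared gave 1190, 4426 and 2541 genes called in parental cells at 8, 24 and 48 h, in place of 6870, 9503 and 8978. Parental 0 h, the baseline there and in the line by time term, had the widest spread between replicates. The part of that spread in these counts was not tested. Leaving out 1 library gave 4720 to 9166 at 8 h. With the replicate block, 6838, 9410 and 8876 genes were called in parental and 14890, 13572 and 9692 in MYC-ER cells, and AHR in parental cells at 8 h passed (0.40, adjusted p = 0.042). Scaling by library size alone moved the median of all genes by -0.12 to 0.16 and the share of calls that were higher from 53.0% to 73.8% in MYC-ER at 48 h. Between the lines that share went from 47.6% to 60.7% at 24 h and from 48.2% to 59.8% at 48 h, and for the line by time term at 48 h from 52.5% to 63.5%. The upper quartile gave 58.4% and 59.7% between the lines at 24 and 48 h. Between the lines, AHR (-0.35, adjusted p = 0.077) and ARNT (-0.13, adjusted p = 0.14) at 24 h missed the threshold under library size alone, and AHRR at 48 h passed it (0.66, adjusted p = 0.041). It also passed without parental 48 h replicate 2 (0.78, adjusted p = 0.030), and TIPARP at 0 h passed without parental 0 h replicate 2 (0.25, adjusted p = 0.0016). Depth limits AHRR most, at 5 to 159 counts per library.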
